A study of Sus scrofa with 9 samples.

Results

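The 8 genes described here, MYOCD, GATA4, GATA6, HAND1, MEF2C, MITF, PROX1 and SMYD1, encode transcription factors, a coactivator and a histone methyltransferase of the heart. They were chosen by symbol, with earlier results of these data known, from the 3890 genes that carry a symbol in the table, and all 8 were found. GRO-seq, in which nuclei extend the RNA of polymerases already engaged on a gene and the new RNA is sequenced, gave 9 libraries from the myocardium of 3 female farm pigs. Tissue was taken 24 hours after a coil had been set in the distal LAD, a coronary artery of the left ventricle. The groups are the ischemic zone, the border zone and the healthy zone, with 1 library per pig in each. Every sample, the healthy zone included, comes from a heart with an infarct, so no library stands for an animal without one. Before nuclei were taken, the tissue was minced, digested with collagenase and filtered, and the run-on therefore reports the cells that came through that step.

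Heart muscle identity rests on a small set of factors that bind together at muscle gene promoters and enhancers. GATA4 and GATA6 are zinc finger factors, MEF2C is a MADS-box factor, and MYOCD has no DNA contact of its own but activates muscle genes through the serum response factor. SMYD1 is a muscle-restricted methyltransferase of the SET and MYND family, HAND1 is a basic helix-loop-helix factor of the embryonic left ventricle in the mouse, and MITF and PROX1 are best known from melanocytes and from lymphatic endothelium, while heart muscle cells of the mouse also use them.

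Values are RPKM, reads scaled to the length of the annotated span and to the library total, introns included. MYOCD (NM_213745) spans chromosome 12 from 59867285 to 60022083, SMYD1 (NM_001160089) chromosome 3 from 60500773 to 60526284, GATA6 (NM_214328) chromosome 6 from 99760293 to 99790611 and GATA4 (NM_214293) chromosome 14 from 16077348 to 16124413, all as the table lists them on the pig build susScr3. PROX1 (NM_001128490) spans chromosome 9 from 142429821 to 142469651 and HAND1 (NM_001014428) chromosome 16 from 74589674 to 74591889. MITF (NM_001038001) spans chromosome 13 from 56459055 to 56475191, and MEF2C (NM_001044540) chromosome 2 from 98794388 to 98885272. The 8 genes hold 12 positions in the table, because MITF is listed at 3 places and MYOCD and SMYD1 at 2 each, and the longest span stands for a gene here. All 8 passed the filter, for which a position had to average 0.5 RPKM or more. HAND1 passed through its healthy libraries, which averaged 1.46 RPKM, against 0.311 in ischemic and 0.330 in border zone libraries. A gene this low elsewhere enters only if it is high in the healthy libraries, so for HAND1 the filter itself favours a fall.

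Library totals were 883656 to 2134087 reads in the ischemic zone, 2187977 to 7005976 in the border zone and 2730083 to 6531658 in the healthy zone. The labelled tissue was checked against 15 heart muscle cell markers in the table, of which 14 passed the filter and CKM was listed at 0 in every library. Positions on unplaced scaffolds were at 0 in all libraries for 548 of 549, and CKM is one of them, so a listed 0 there is not read as silence. The summed level of the marker list was 145 to 347 RPKM in the ischemic, 265 to 414 in the border zone and 499 to 831 in the healthy libraries. Ischemic replicate 2 was the highest of its group on this sum. In bulk tissue, fewer heart muscle cells and less transcription per cell cannot be told apart.

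The first comparison asks how the 8 regulators were transcribed at the site of the infarct relative to healthy myocardium. Transcription of 7 of the 8 fell in the ischemic zone, by 3.31-fold for GATA4 up to 10.6-fold for MYOCD, and that of MEF2C did not pass the test. Over all 2384 positions tested, 9.1% were lower, 18.5% higher and 27.6% changed in either direction at an adjusted p under 0.05 (limma, Benjamini-Hochberg over all positions). The median log2 fold change was -2.30 over the 8 genes and 0.21 over all positions. For the same 7 genes every ischemic library lay under every healthy library, a separation that 14.9% of all positions showed. HAND1 is among the 7, and it passed the filter through its healthy libraries. Because the 8 genes were chosen with earlier results of these data known, these counts beside the shares are a description. With all libraries scaled to the same median, the 8 log2 fold changes kept their sign, and MYOCD had -3.60 and GATA4 -1.95.

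**Figure D1:**
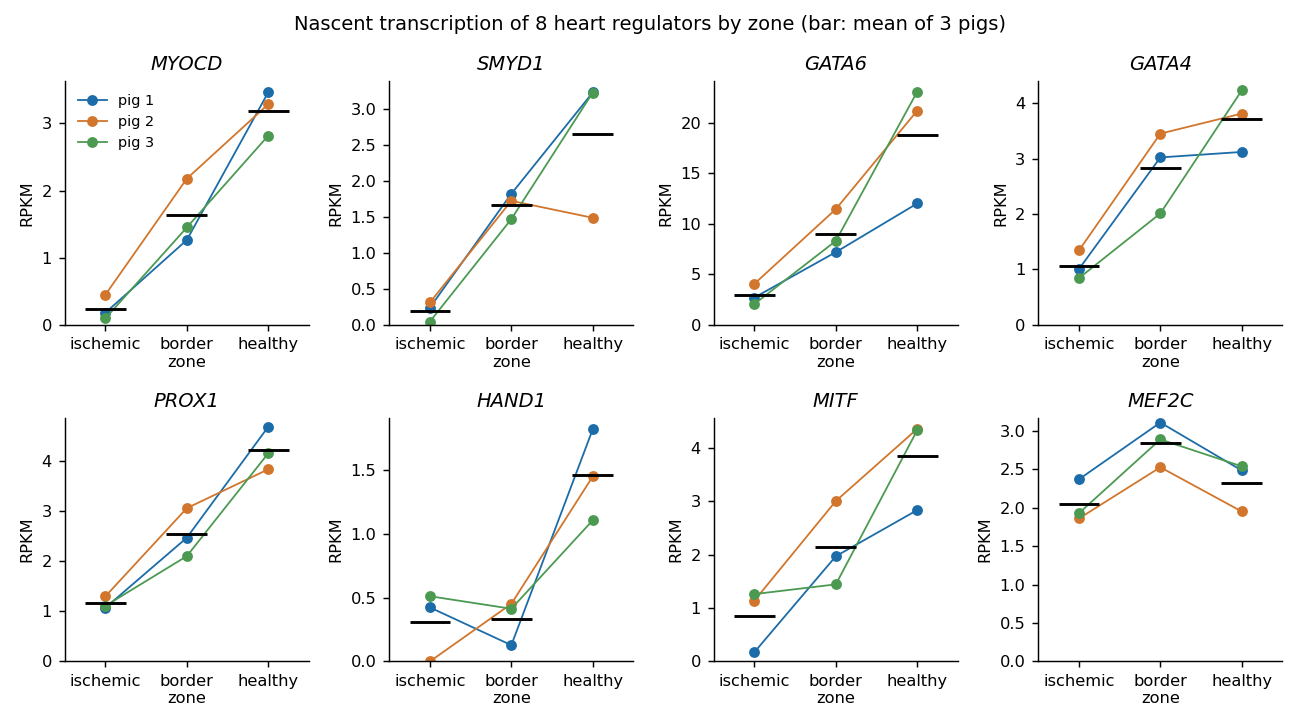
RPKM of each gene (vertical axis, linear from 0) in the ischemic, border and healthy zone (horizontal axis), with 1 line per pig and a black bar for the mean of 3 pigs. The ischemic points of 7 genes lie under all healthy points, while those of MEF2C overlap them.

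MYOCD and SMYD1 showed the largest falls of the 8. MYOCD was read at 0.179, 0.447 and 0.0950 RPKM in ischemic, 1.26, 2.18 and 1.45 RPKM in border zone and 3.46, 3.29 and 2.82 RPKM in healthy replicates 1 to 3. The 3 zones did not overlap for this gene, and in all 3 pigs the ischemic value was lowest and the healthy value highest. Its log2 fold change in ischemic against healthy myocardium was -3.40 ± 0.38 (± SE, limma adjusted p = 0.00121), carried by 151 ischemic and 6056 healthy reads over the group. SMYD1 was read at 0.239, 0.309 and 0.0444 RPKM in ischemic, 1.82, 1.72 and 1.47 RPKM in border zone and 3.23, 1.49 and 3.23 RPKM in healthy replicates. The ischemic libraries lay far under the others, and healthy replicate 2 lay within the border zone range. SMYD1 fell 9.58-fold (log2 fold change -3.26 ± 0.44, limma adjusted p = 0.00219), with 23 ischemic reads, of which ischemic replicate 3 held 1.

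Both genes have a further listed position on the opposite strand, whose values are given here beside the main one. The second SMYD1 position (chromosome 3 from 60588375 to 60607410) was at 0.0492, 0.230 and 0 RPKM in ischemic, against 2.37, 1.81 and 2.96 RPKM in healthy replicates, a log2 fold change of -3.84 ± 0.44 (limma adjusted p = 0.00122). The second MYOCD position lies inside the span of the first (chromosome 12 from 59938994 to 59945526). It was at 0.287, 1.61 and 0 RPKM in ischemic, against 6.67, 5.63 and 7.15 RPKM in healthy replicates, a log2 fold change of -4.02 ± 0.86 (limma adjusted p = 0.0132). In the healthy libraries this inner stretch was read at a higher density than the whole span. The sources used here do not give the strand setting of the counting. Among 92 positions that lie inside another of the opposite strand, 17 held more reads than the one around them in at least 1 library, which counting on both strands would not give. The inner MYOCD position held more reads than the outer in 0 libraries. Whether its reads are also counted in the outer position was not tested.

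Both GATA factors fell in ischemic against healthy myocardium. GATA6 was the most transcribed of the 8 genes in each zone, at 2.69, 4.05 and 2.05 RPKM in ischemic, 7.18, 11.4 and 8.29 RPKM in border zone and 11.997, 21.2 and 23.1 RPKM in healthy replicates. The zones did not overlap, and each pig ran in the order ischemic, border zone, healthy. Its log2 fold change in ischemic against healthy myocardium was -2.63 ± 0.36 (limma adjusted p = 0.00219), a fall of 6.21-fold. GATA4 was at 1.01, 1.34 and 0.842 RPKM in ischemic, 3.02, 3.45 and 2.01 RPKM in border zone and 3.12, 3.81 and 4.23 RPKM in healthy replicates. Border zone and healthy libraries overlapped for GATA4, and the ischemic libraries stood apart from both. GATA4 fell 3.31-fold (log2 fold change -1.73 ± 0.27, limma adjusted p = 0.0033). Within a library, GATA6 was 2.67, 3.02 and 2.44 times GATA4 in ischemic, against 3.84, 5.55 and 5.45 times in healthy replicates. The ranges of this ratio did not overlap (exact permutation test, 2-sided p = 0.1, the smallest that 3 against 3 libraries allow, so that it cannot pass 0.05).

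PROX1, a homeobox factor, was at 1.07, 1.30 and 1.11 RPKM in ischemic, 2.47, 3.06 and 2.10 RPKM in border zone and 4.68, 3.83 and 4.15 RPKM in healthy replicates. Its zones did not overlap, and the spread within a zone was small, with 1.16 ± 0.122 RPKM in ischemic and 4.22 ± 0.429 RPKM in healthy myocardium (mean ± SD, n = 3 each). PROX1 fell 3.43-fold (log2 fold change -1.78 ± 0.20, limma adjusted p = 0.00122). Its ratio to GATA4 within a library was 0.968 to 1.32 in ischemic and 0.981 to 1.50 in healthy replicates, and these ranges overlapped. Of 8 lymphatic endothelial markers only CCL21 is in the table, with 0 to 4.69 RPKM in ischemic, 0 to 0.654 in border zone and 0 to 3.14 in healthy libraries. The part of lymphatic cells in the PROX1 signal was not tested.

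HAND1 is a short gene of 2215 bp, and its reads were few. It was at 0.423, 0 and 0.511 RPKM in ischemic, 0.127, 0.451 and 0.413 RPKM in border zone and 1.82, 1.45 and 1.11 RPKM in healthy replicates. These are 2, 0 and 1 reads in the ischemic libraries, 1, 7 and 2 in the border zone and 11, 11 and 16 in the healthy libraries. Ischemic and border zone libraries overlapped, and all 6 lay under the healthy ones. Pooled over the libraries of a group, HAND1 was 0.241 times its healthy level in the ischemic zone, with an exact 95% interval of 0.0476 to 0.759, and 0.262 times in the border zone, with an interval of 0.116 to 0.536. Such intervals cover counting error only. The 0 in ischemic replicate 2 allows up to 1.19 RPKM, the level of 3 reads in that library. The log2 fold change in ischemic against healthy myocardium was -2.27 ± 0.72 (limma adjusted p = 0.0469). That call was lost with pig as a block (0.0675), by limma-voom on the recovered reads (0.101), with only 2 groups fitted (0.0746), with no filter (0.0646), with a pseudocount of 0.02 (0.093), and without any of 7 libraries. The adjusted p of HAND1 was 0.0584 with ischemic replicate 1 left out, 0.0504, 0.0644 and 0.0661 with border zone replicate 1, 2 or 3 left out, and 0.142, 0.128 and 0.0965 with healthy replicate 1, 2 or 3 left out.

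MITF, a helix-loop-helix leucine zipper factor, was at 0.174, 1.14 and 1.26 RPKM in ischemic, 1.97, 3.01 and 1.44 RPKM in border zone and 2.84, 4.36 and 4.34 RPKM in healthy replicates. Ischemic replicate 1 was low within its group, with 6 reads, and the border zone overlapped the healthy libraries. MITF fell 5.00-fold in ischemic against healthy myocardium (log2 fold change -2.32 ± 0.59, limma adjusted p = 0.0233), with an adjusted p of 0.0719 or 0.0685 when healthy replicate 2 or 3 was left out, and of 0.0521 with only the 2 groups fitted. The position from 56614705 to 56618423, on the other strand of chromosome 13, was at 0.756, 1.41 and 0.913 RPKM in ischemic, against 3.05, 2.51 and 5.85 RPKM in healthy replicates, a log2 fold change of -1.74 ± 0.38 (limma adjusted p = 0.0132). The third position, of 736 bp, held 2, 0 and 0 reads in the ischemic, 7, 20 and 8 in the border zone and 3, 5 and 23 in the healthy libraries.

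MEF2C was the exception among the 8. It was at 2.37, 1.86 and 1.93 RPKM in ischemic, 3.11, 2.53 and 2.89 RPKM in border zone and 2.49, 1.95 and 2.54 RPKM in healthy replicates. Ischemic and healthy libraries overlapped as groups. Within each of the 3 pigs the ischemic value was the lowest and the border zone value the highest of the 3 zones. The log2 fold change in ischemic against healthy myocardium was -0.17 ± 0.20 (limma adjusted p = 0.555), with a 95% interval of -0.62 to 0.28. That interval leaves room for a modest fall or rise. With 808 ischemic and 2733 healthy reads, MEF2C had the most reads of the 8 in the ischemic zone. Relative to GATA4 in the same library, MEF2C stood at 2.36, 1.39 and 2.29 in ischemic, against 0.797, 0.512 and 0.600 in healthy replicates. Relative to MYOCD it stood at 13.3, 4.16 and 20.3 in ischemic, against 0.718, 0.594 and 0.902 in healthy replicates. Neither ratio overlapped between the zones, which restates the levels above and is given with no test.

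**Figure D2:**
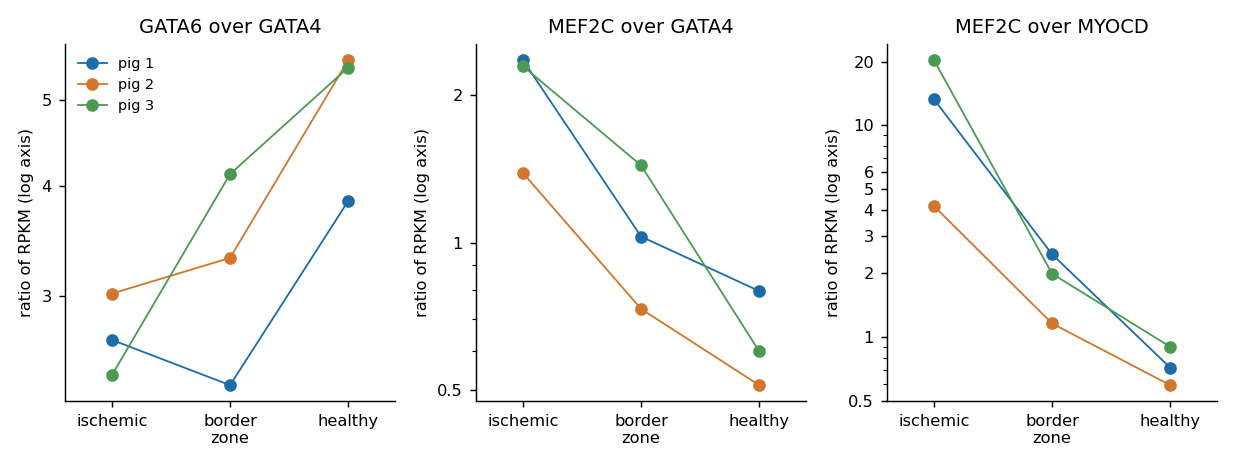
Ratio of RPKM between 2 genes of the same library (vertical, log axis) in the ischemic, border and healthy zone, with 1 line per pig. MEF2C over MYOCD reaches 4.16 to 20.3 in ischemic libraries and stays between 0.594 and 0.902 in healthy ones, while GATA6 over GATA4 is lower in ischemic than in healthy libraries in all 3 pigs.

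These shifts changed the order of the 8 genes. In the ischemic zone the order of mean RPKM was GATA6 at 2.93, MEF2C at 2.05, PROX1 at 1.16, GATA4 at 1.06, MITF at 0.859, HAND1 at 0.311, MYOCD at 0.240 and SMYD1 at 0.197. In the healthy zone it was GATA6 at 18.7, PROX1 at 4.22, MITF at 3.84, GATA4 at 3.72, MYOCD at 3.19, SMYD1 at 2.65, MEF2C at 2.33 and HAND1 at 1.46. MEF2C took 23.3% of the summed mean RPKM of the 8 in the ischemic zone and 5.79% in the healthy zone, while MYOCD took 2.73% in the ischemic and 7.94% in the healthy zone. Most neighbours in these orders overlapped in their libraries. The exceptions were MEF2C over PROX1 in the ischemic zone, and GATA6 over PROX1 and MEF2C over HAND1 in the healthy zone.

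The border zone was compared with healthy myocardium to ask whether the change reached beyond the ischemic zone. None of the 8 genes passed (limma, 0 called). Limma-voom on the recovered reads called 3, namely GATA6, MYOCD and PROX1 (adjusted p = 0.0238, 0.0265 and 0.0292). Among all positions 0.21% were lower and 5.79% higher at an adjusted p under 0.05 in the main fit. By limma-voom 1.64% were lower and 10.8% higher. The fitted values were under 0 for 7 of the 8, with a median log2 fold change of -0.79, against 0.22 over all positions. PROX1 had -0.72 ± 0.20 (limma adjusted p = 0.082, and 0.0467 with libraries scaled to the same median), GATA6 had -1.03 ± 0.36 (adjusted p = 0.148) and MYOCD had -0.96 ± 0.38 (adjusted p = 0.195). For HAND1, GATA6, MYOCD and PROX1 each border zone library lay under each healthy library, a separation shown by 6.71% of all positions. Of these, HAND1 had passed the filter through its healthy libraries. HAND1 had -1.93 ± 0.72 (limma adjusted p = 0.174, and 0.033 without ischemic replicate 2). MEF2C had 0.28 ± 0.20 (limma adjusted p = 0.471), with a 95% interval of -0.17 to 0.74.

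On the log2 scale, the border zone difference from healthy myocardium was 28.1% of the ischemic one for MYOCD, 17.2% for SMYD1, 39.0% for GATA6, 23.6% for GATA4, 40.6% for PROX1 and 36.5% for MITF. For HAND1 it was 85.2%, a value that rests on 3 ischemic and 10 border zone reads. Both differences in each share use the same healthy libraries. All 3 pigs ran in the order ischemic, border zone, healthy, from low to high, for MYOCD, GATA6, GATA4, PROX1 and MITF, as did 2 pigs for SMYD1 and 1 for HAND1. Of the 8 genes, 6 were highest in replicate 2 among the border zone libraries, and 5 were highest in replicate 2 among the ischemic libraries. These are also the libraries with the highest heart muscle marker sums of their groups, at 414 and 347 RPKM. In the healthy zone the match was partial. Replicate 1 had the highest marker sum there, at 831 RPKM, and 4 of the 8 genes were highest in it, while GATA4 and GATA6 were lowest in it.

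Between the ischemic and the border zone, MYOCD and SMYD1 passed. MYOCD had a log2 fold change of -2.45 ± 0.38 (limma adjusted p = 0.041) and SMYD1 had -2.70 ± 0.44 (limma adjusted p = 0.0446), where 0.965% of all positions were lower, 0.168% higher and 1.13% changed in either direction. These calls are close to the threshold. SMYD1 was lost with pig as a block (adjusted p = 0.0608), while MYOCD passed with it (0.0374). The second SMYD1 position had -3.26 ± 0.44 (limma adjusted p = 0.031), and 0.0724 with ischemic replicate 3 left out, 0.0804, 0.0906 and 0.0673 with 1 border zone library left out and 0.0562 and 0.0537 with healthy replicate 1 or 3 left out. MYOCD had an adjusted p of 0.055 and 0.0847 with ischemic replicate 1 or 3 left out, of 0.0846, 0.141 and 0.0871 with 1 border zone library left out, and of 0.0654, 0.0693 and 0.0683 with 1 healthy library left out. SMYD1 had 0.0847 with ischemic replicate 3 left out, 0.111, 0.156 and 0.103 with 1 border zone library left out, and 0.0654 and 0.0722 with healthy replicate 1 or 3 left out.

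The other genes did not pass in this comparison, with PROX1 at -1.06 ± 0.20 (limma adjusted p = 0.0524), GATA4 at -1.32 ± 0.27 (adjusted p = 0.0637) and GATA6 at -1.61 ± 0.36 (adjusted p = 0.0909). Limma-voom on the recovered reads called all 3 (adjusted p = 0.0271, 0.0205 and 0.015). It called 2.73% of all positions lower and 1.13% higher. A filter at a mean of 2 RPKM called PROX1 and GATA4 (limma adjusted p = 0.0462 and 0.0475). Of the positions it kept, 2.10% were lower and 0.349% higher. For 7 of the 8, MEF2C among them and HAND1 not, every ischemic library lay under every border zone library, which 11.5% of all positions showed. MEF2C had -0.45 ± 0.20 (limma adjusted p = 0.318), and HAND1 had -0.34 ± 0.72 (limma adjusted p = 0.866).

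**Figure D3:**
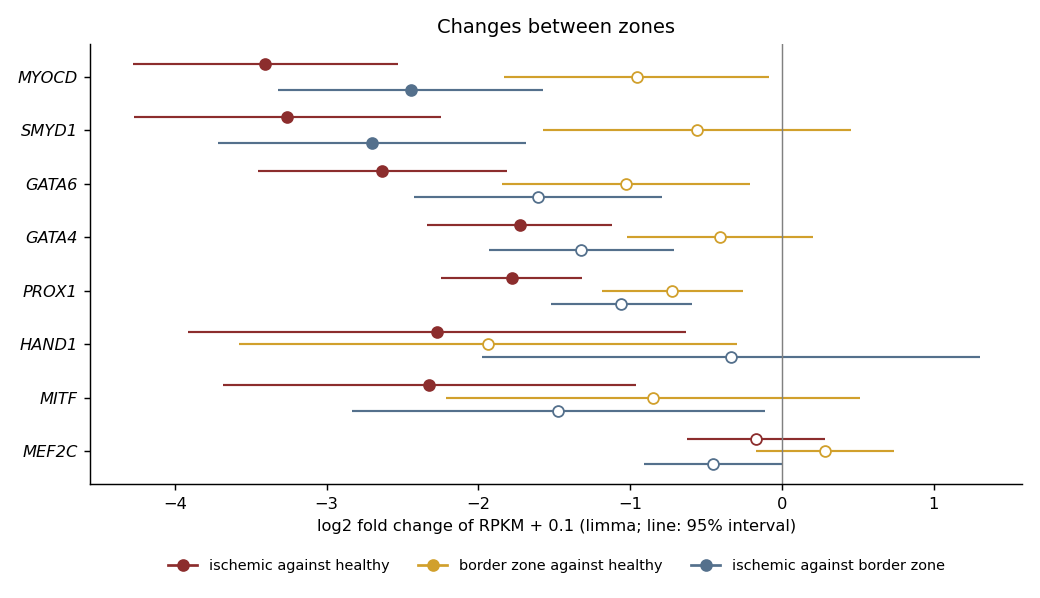
Log2 fold change of each gene (horizontal axis, RPKM with 0.1 added) for 3 comparisons, with 95% intervals from limma, where filled points have an adjusted p under 0.05. The ischemic against healthy points of 7 genes are filled and lie between -3.40 and -1.73, and no border zone against healthy point is filled.

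Of the 14 measured heart muscle markers, 9 fell and 0 rose in ischemic against healthy myocardium, where 9.1% of all positions fell. That count was 12 without ischemic replicate 2 and 4 to 6 without any other single library. Because many of the markers fell together with these genes, each library was also scaled to its mean log2 level of the 14 measured markers. This mean was 2.50, 3.79 and 2.18 in ischemic, 3.62, 4.34 and 3.59 in border zone and 5.15, 4.66 and 4.57 in healthy replicates. On that scale the median of all positions moves to 1.98 in ischemic against healthy myocardium, so the values show only how a gene stood relative to the markers. MYOCD remained lower, with a log2 fold change of -1.80 ± 0.46 (limma adjusted p = 0.00573), as did SMYD1 with -1.75 ± 0.56 (limma adjusted p = 0.016). GATA4 and PROX1 lay close to the markers, at 0.14 ± 0.50 and 0.10 ± 0.49 (limma adjusted p = 0.819 and 0.865). GATA6 had -0.70 ± 0.54, MITF had -0.54 ± 0.68 and HAND1 had -0.51 ± 0.98, none of which passed. MEF2C was higher relative to the markers, with 1.71 ± 0.56 (limma adjusted p = 0.0184), as were 65.4% of all positions, while 1.05% were lower. Its value lies under the median of all positions on that scale, so the call is not particular to MEF2C. Without ischemic replicate 2, a choice made after the data were seen, MYOCD had -1.89 (limma adjusted p = 0.000617), SMYD1 -1.76 (0.0109) and MEF2C 2.25 (0.000517), while HAND1 had 0.76 (0.169). The median of all positions was then 2.51, with 79.7% higher and 1.38% lower.

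**Figure D4:**
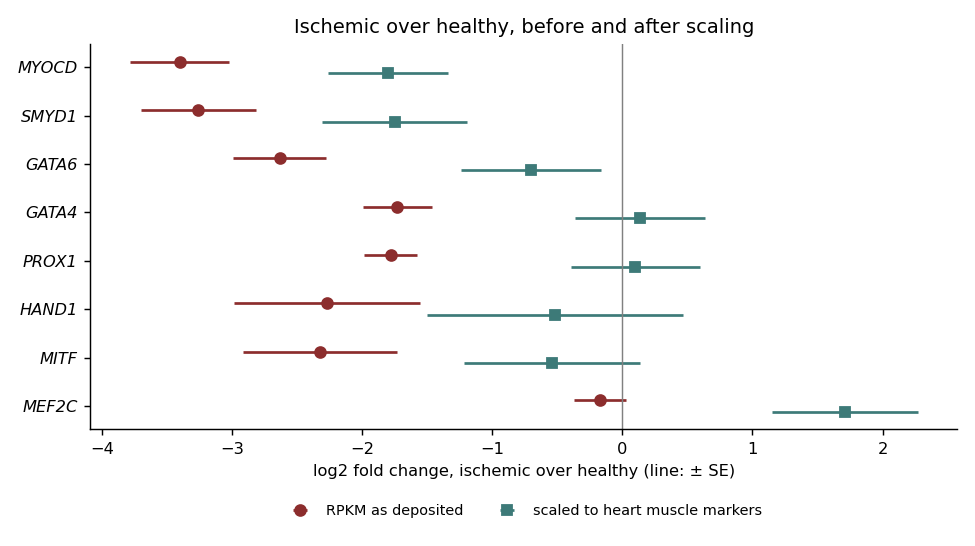
Log2 fold change of ischemic over healthy myocardium (horizontal axis, lines are ± SE) for the RPKM as deposited (circles) and after scaling each library to 14 heart muscle markers (squares). After scaling, MYOCD and SMYD1 stay under 0 at -1.80 and -1.75, GATA4 and PROX1 lie near 0 and MEF2C lies at 1.71.

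Summed levels of macrophage, neutrophil, endothelial and fibroblast markers were higher in the ischemic than in the healthy libraries. The summed level of 17 macrophage and monocyte genes was 44.6 to 61.3 RPKM in ischemic, 23.0 to 37.6 in border zone and 3.69 to 6.08 in healthy libraries. CD163 was at 0 throughout, but it lies on an unplaced scaffold, so its 0 is not read as silence. Of the 17 genes, 12 were measured, of which 10 rose and 0 fell in ischemic against healthy myocardium. Of all positions, 18.5% rose and 9.1% fell. The sum of 7 neutrophil genes was 14.4 to 32.9 RPKM in ischemic, 5.89 to 12.2 in border zone and 0.174 to 0.760 in healthy libraries, where S100A8, S100A9, S100A12 and MMP9 were at 0. The sum of 9 blood vessel endothelial genes was 21.2 to 44.0 RPKM in ischemic, 11.9 to 25.7 in border zone and 9.46 to 11.9 in healthy libraries, and 5 of the 8 measured rose. That count was 2 and 3 without ischemic replicates 1 and 3, and 3, 1 and 2 without healthy replicates 1 to 3. The sum of 6 fibroblast genes was 16.5 to 20.3, 12.4 to 15.2 and 8.85 to 11.98 RPKM in the ischemic, border zone and healthy libraries, and 3 of the 6 rose, or 1 without ischemic replicate 2, healthy replicate 2 or healthy replicate 3. MEF2C is also used by endothelial and myeloid cells, and the part of these cells in its level was not tested.

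Other regulators of the heart were read in ischemic against healthy myocardium, where 9.1% of all positions were lower and 18.5% higher. Of 61 cardiac transcription factors and cofactors listed beside the 8, 23 are in the table and 16 were measured, of which 5 fell and 1 rose in ischemic against healthy myocardium, with a median log2 fold change of -0.41. Without ischemic replicate 1 or 3, or healthy replicate 2 or 3, 3 fell and 0 rose. PPARA, a nuclear receptor of fatty acid metabolism, was at 0.383, 0.526 and 0.494 RPKM in ischemic, against 3.16, 2.88 and 1.44 RPKM in healthy replicates (log2 fold change -2.13 ± 0.46, limma adjusted p = 0.0132). ZFPM2, a cofactor that binds GATA4, was at 0.307, 0.530 and 0.279 RPKM in ischemic, against 0.999, 1.33 and 1.40 RPKM in healthy replicates (-1.53 ± 0.30, limma adjusted p = 0.0089). All ischemic values of both lay under the healthy ones. HEY2, a Notch effector, had -1.84 ± 0.48 (limma adjusted p = 0.0248), and 0.0624 and 0.0565 without ischemic replicates 1 and 2. THRA, a thyroid hormone receptor, had -0.94 ± 0.23 (limma adjusted p = 0.0199), and 0.0557 with ischemic replicate 3 left out and 0.052 and 0.069 with healthy replicate 2 or 3 left out. The fifth fall, TEAD1 (-0.75 ± 0.22, limma adjusted p = 0.0353), and the rise, PPARD (1.54 ± 0.42, limma adjusted p = 0.0278), were named after their values were seen. Without single libraries, TEAD1 reached an adjusted p of 0.0973 (without healthy replicate 2) and was also over 0.05 without border zone replicate 1, healthy replicates 1 and 3 and ischemic replicates 1 and 3 (0.0526, 0.0942, 0.0778, 0.0914 and 0.0626). PPARD was over 0.05 without healthy replicates 1 to 3 (0.065, 0.0714 and 0.0748) and ischemic replicates 1 and 3 (0.0726 and 0.0605).

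ANKRD1, a stress-responsive repeat protein of muscle, did not pass (-0.45 ± 0.43, limma adjusted p = 0.476), nor did the receptor ESRRA (-0.37 ± 0.38, limma adjusted p = 0.5). MEF2A, the paralogue of MEF2C, lies on unplaced scaffolds and is listed at 0 in every library.

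Among chromatin regulators, of 78 listed, 25 are in the table and 21 were measured, of which 2 rose and 1 fell in ischemic against healthy myocardium, with a median log2 fold change of -0.02. Without ischemic replicate 1 or healthy replicate 2, 1 rose and 0 fell. The share of all positions that changed in either direction was 27.6%. HMGA1, an architectural chromatin protein, was at 2.09, 2.26 and 2.92 RPKM in ischemic, against 0.559, 0.857 and 1.08 RPKM in healthy replicates (1.47 ± 0.25, limma adjusted p = 0.00499). It also rose in border zone against healthy myocardium (1.17 ± 0.25, limma adjusted p = 0.0368), a call lost without border zone replicates 1 to 3 (0.126, 0.0666 and 0.141) or healthy replicates 1 and 2 (0.0817 and 0.109). HMGB1 had 1.34 ± 0.36 (limma adjusted p = 0.0286), and 0.0835 and 0.0561 with ischemic replicate 1 or 2 left out and 0.0837 and 0.0791 with healthy replicate 2 or 3 left out. The 1 fall of the list was SIRT5, a mostly mitochondrial deacylase, with -2.77 ± 0.78 (limma adjusted p = 0.0316). That call was lost without border zone replicates 1 or 2 (0.0532 and 0.0508), healthy replicates 1 or 2 (0.113 and 0.12) or ischemic replicates 1 or 3 (0.0846 and 0.0777). HMGB2 had 2.00 ± 0.67 (limma adjusted p = 0.0557, and 0.0173 without healthy replicate 1), and BRD2, a bromodomain protein, had 0.46 ± 0.26 (limma adjusted p = 0.217). SMYD2, a relative of SMYD1, had -0.43 ± 0.27 (limma adjusted p = 0.261).

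Genes known as targets of the 8 in heart muscle fell in part. Of 38 listed, 27 are in the table and 22 were measured, of which 12 fell and 0 rose in ischemic against healthy myocardium, with a median log2 fold change of -1.55. The list shares most of the measured heart muscle markers named above, so it is no separate reading of them. The count of falls was 6 without ischemic replicate 3, 7 without ischemic replicate 1, 7 without healthy replicate 1 or 2 and 6 without healthy replicate 3, where 1 gene rose. It was 15 without ischemic replicate 2, where 1 gene also rose, and 9 without border zone replicate 1, 2 or 3. Of all positions, 9.1% fell in the main fit. Among the calls lost without ischemic replicate 3 were the troponin genes TNNC1 and TNNT2 (adjusted p = 0.138 and 0.101), named after their values were seen. CSRP3, a LIM protein, had -2.97 ± 0.25 (limma adjusted p = 0.000337), ACTN2, alpha-actinin, -2.97 ± 0.36 (0.00141), CAMK2D, a calcium-dependent kinase, -2.19 ± 0.31 (0.0025), and ATP2A2, the calcium pump, -2.46 ± 0.35 (0.00258). CSRP3 and ACTN2 were also lower in the ischemic than in the border zone, at -2.23 ± 0.25 and -2.02 ± 0.36 (limma adjusted p = 0.0173 and 0.0478). Without border zone replicates 1 to 3, CSRP3 had an adjusted p of 0.0546, 0.0557 and 0.0673, with 0.0537 without healthy replicate 3 and 0.0724 without ischemic replicate 3. ACTN2 had 0.0782 and 0.154 with ischemic replicate 1 or 3 left out, 0.121, 0.172 and 0.113 with 1 border zone library left out and 0.0762, 0.0902 and 0.0738 with 1 healthy library left out. MYH7, the slow myosin heavy chain, had -1.43 ± 0.50 (limma adjusted p = 0.0647, 0.0303 with pig as a block and 0.0287 without ischemic replicate 2). ACTA1, skeletal actin, had -1.06 ± 0.44 (limma adjusted p = 0.11, and 0.0349 without ischemic replicate 2).

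Of 16 smooth muscle targets of MYOCD listed, 8 are in the table and 7 were measured, of which 1 rose and 1 fell, a share close to the 27.6% of all positions that changed in either direction, with a median log2 fold change of -0.46. TAGLN, transgelin, was at 2.75, 2.49 and 3.02 RPKM in ischemic, against 0.977, 0.935 and 1.06 RPKM in healthy replicates (1.38 ± 0.18, limma adjusted p = 0.00175). All 3 ischemic libraries lay over the healthy ones, the opposite of MYOCD. TPM1, a tropomyosin that heart muscle also expresses, had -2.02 ± 0.56 (limma adjusted p = 0.0314). The adjusted p of TPM1 was 0.0753 and 0.0658 with ischemic replicate 1 or 3 left out, and 0.0672, 0.069 and 0.0907 with 1 healthy library left out. DES, desmin, had -0.52 ± 0.28 (limma adjusted p = 0.196) and TPM2 had -0.46 ± 0.37 (limma adjusted p = 0.397). The 6 smooth muscle and pericyte markers summed to 29.2 to 44.6 RPKM in ischemic, 44.3 to 56.5 in border zone and 44.1 to 51.3 in healthy libraries.

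MITF targets known from melanocytes, mast cells and osteoclasts were largely outside the measured range. Of 26 listed, 14 are in the table and 4 were measured, of which 3 rose in ischemic against healthy myocardium while MITF fell. Of all positions, 18.5% rose. KIT, the stem cell factor receptor of mast cells and melanocytes, was at 3.23, 2.74 and 3.25 RPKM in ischemic, against 0.688, 0.845 and 1.37 RPKM in healthy replicates (1.62 ± 0.27, limma adjusted p = 0.0046). HIF1A, the hypoxia factor, had 1.39 ± 0.22 (limma adjusted p = 0.0033). The KIT libraries of the ischemic zone all lay over the healthy ones. CTSK, a cathepsin, had 1.01 ± 0.27 (limma adjusted p = 0.0275), and 0.0802 and 0.0543 with ischemic replicate 1 or 2 left out and 0.0791 and 0.0829 with healthy replicate 1 or 2 left out. BCL2A1 had 1.74 ± 0.73 (limma adjusted p = 0.11, and 0.00578 with pig as a block). Of the 5 mast cell and melanocyte markers in the table, TYRP1 was at 0 in every zone and TYR was at 0 in the ischemic and border zone libraries.

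**Figure D5:**
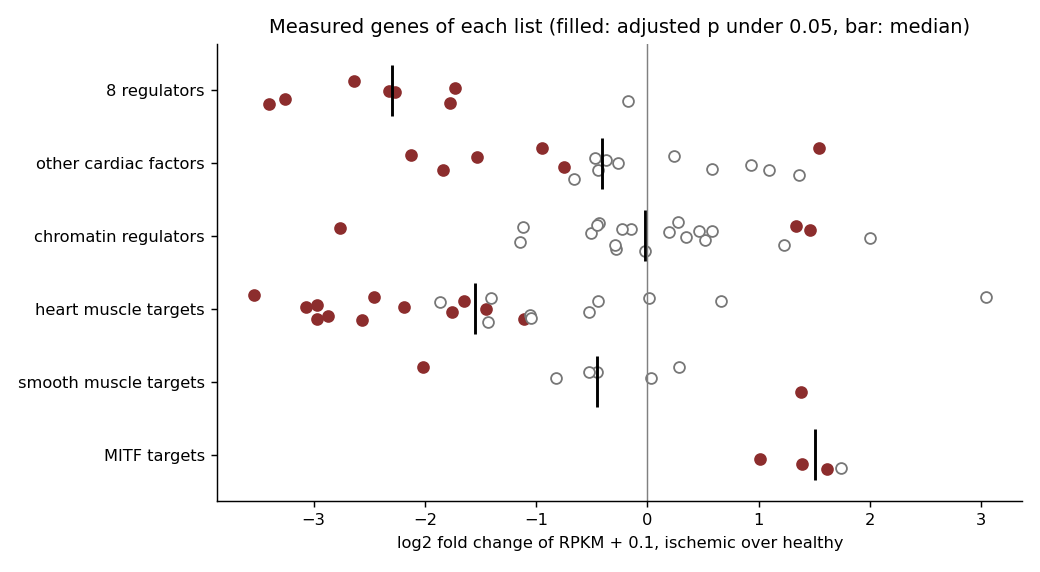
Log2 fold change of ischemic over healthy myocardium (horizontal axis) for each measured gene of 6 lists, where filled points have an adjusted p under 0.05 and bars are medians. The medians are -2.30 for the 8 regulators, -0.41 for other cardiac factors, -0.02 for chromatin regulators and -1.55 for heart muscle targets.

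Across the 9 libraries the 7 genes that fell varied together, with a Pearson r of 0.44 to 0.97 over 21 pairs on log2(RPKM + 0.1), while the 7 pairs with MEF2C had 0.03 to 0.60. These r are descriptions, since the libraries share pig, zone and depth. The 7 genes were also set apart from MEF2C by the same zone difference that enters each r, so the contrast with MEF2C follows in part from that grouping. The 3 genes most like MYOCD were DMD, which encodes dystrophin (r = 0.99), the unnamed NM_213762 (0.99) and ACTN2 (0.99). SMYD1 was most like FBXO32 (0.98), EDNRA (0.96) and MYOCD (0.95). GATA6 was most like NCEH1 (0.99), SLC41A1 (0.99) and ATP2A2 (0.99), and GATA4 most like CLIC5 (0.98), MYOT (0.97) and the second SMYD1 position (0.97). PROX1 was most like TSPAN12, HADHA and CAST (0.99, 0.99 and 0.98). MITF was most like UCHL3, KPNA1 and ATP5L (0.97, 0.95 and 0.93), and HAND1 most like SPRY1, COX8H and CCNG1 (0.97, 0.94 and 0.91). MEF2C was most like TRMO, LNPEP and ESD (0.94, 0.94 and 0.89).

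None of the nearest listed genes passed the test in ischemic against healthy myocardium (limma, 0 of 4 measured). Of all positions, 27.6% changed in either direction, and 4 genes are too few to set against that share. FDFT1, 40.6 kb from GATA4, was at 0.907, 0.849 and 1.53 RPKM in ischemic, against 1.49, 0.839 and 0.768 RPKM in healthy replicates (log2 fold change 0.09 ± 0.35, limma adjusted p = 0.877). Its zones overlapped, and its sign turned with libraries scaled to the same median (-0.12). ELAC2, 74.8 kb from MYOCD, had 0.45 ± 0.41 (limma adjusted p = 0.445), KRCC1, 10 kb from SMYD1, had 0.26 ± 0.38 (limma adjusted p = 0.653), and SMYD2, 217.2 kb from PROX1, had the value given above. The only other listed neighbour within 500 kb was the microRNA locus MIR9-2, 49.7 kb from MEF2C, which was listed at 0.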

How the data were processed

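The authors deposited 1 table of RPKM values, with 1 column for each of the 9 libraries, for 4882 annotated transcript positions. Reads were aligned to susScr3 with Bowtie, per the submitters' processing notes. The sources used here do not give the counting program, strand setting, duplicate handling or Bowtie version. The span and exon lengths come from the file headers. Each nonzero RPKM times span and library total gave a whole number of reads within 0.01, for 100% of values, which recovered the library totals and reads. Replicates are the samples of 3 pigs, and the precision is that of 3 libraries per group.

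Symbols came from a Sscrofa11.1 RefSeq table by accession and named 4793 of the positions. Values were taken to log2(RPKM + 0.1), and 2384 positions that averaged 0.5 RPKM or more were fitted with limma 3.58.1 (R 4.3.3, eBayes with trend and robust settings) with the 3 groups as terms. Tests were 2-sided, with Benjamini-Hochberg adjustment per comparison and a threshold of 0.05. Fold changes are on the log2(RPKM + 0.1) scale and understate those of low genes. The fit was tested on simulated reads. Other steps used scipy 1.17.1 and pandas 2.3.3 under Python 3.11.15.

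The 8 genes and the gene lists were chosen with earlier results of these data known. Named from each list were up to 4 genes with the lowest p past the threshold in ischemic against healthy myocardium and 2 others with the highest mean RPKM, with the 3 genes most alike and the nearest listed genes within 500 kb of each of the 8. The labels assign replicate numbers to pigs, so the numbers pair the libraries. Deviations from the group means correlated with r of -0.04 to 0.18 between libraries of 1 pig, and of -0.16 to 0.08 between pigs. Alternatives were other pseudocounts, filters, scalings, a replicate block, limma-voom, 2-group fits, other eBayes settings, the position with the highest mean, and leaving out each library. No sequences of these genes were used here.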

Additional observations from a re-analysis of the deposited data

How the results depend on the processing

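In ischemic against healthy myocardium 659 positions and 7 of the 8 genes passed. Leaving out single libraries gave 362 to 698 positions and 5 to 7 genes. A filter at a mean of 2 RPKM gave 346 and 4, with MYOCD, SMYD1 and HAND1 under the filter and not tested. Scaling to heart muscle markers gave 1585 and 3, and fitting only 2 groups gave 459 and 5. In border zone against healthy myocardium 143 positions and 0 genes passed. The position count was 86 with a pseudocount of 0.5, 95 with no filter, 76 with a filter at 2 RPKM, 90 with the same median, 85 with quantile normalization, 72 with heart muscle scaling and 296 with limma-voom, and 36 to 174 without single libraries. The gene count was 1 with only 2 groups fitted, the same median or quantile normalization, 3 with limma-voom, and 0 to 1 without single libraries. In ischemic against border zone myocardium 27 positions and 2 genes passed. The position count was 10 with a pseudocount of 0.5, 3 with no filter, 1 with only 2 groups fitted, 8 with the same median, 5 with quantile normalization, 5 with heart muscle scaling, 92 with limma-voom, and 0 to 39 without single libraries. The gene count was 1 with a pseudocount of 0.5 or 0.02, with the replicate block or with the position of highest mean, 0 with no filter, only 2 groups fitted, the same median, quantile normalization or heart muscle scaling, 5 with limma-voom, 2 (PROX1 and GATA4, with MYOCD and SMYD1 under the filter) at a filter of 2 RPKM, and 0 to 2 without single libraries.

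The share of higher among called positions in ischemic against healthy myocardium was 67.1%, against 53.2% with the same median, 49.8% with quantile normalization and 98.4% with heart muscle scaling. In border zone against healthy myocardium it was 96.5%, against 85.6% with the same median, and in ischemic against border zone myocardium 14.8%, against 60.0% with heart muscle scaling, which is 3 of 5 positions. Heart muscle scaling without ischemic replicate 2, chosen after seeing the data, called 1933 positions and 3 genes in ischemic against healthy, 883 and 1 in border zone against healthy and 1532 and 4 in ischemic against border zone myocardium, with 98.3%, 99.8% and 98.2% of these positions higher. With pig as a replicate block, HAND1 (ischemic against healthy) and SMYD1 (ischemic against border zone) were lost, MYH7 and BCL2A1 passed, and no other call named in the text for ischemic against healthy myocardium changed.

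Signs turned under heart muscle scaling for ischemic against healthy myocardium, to log2 fold changes of 1.71 for MEF2C, 0.10 for PROX1, 0.14 for GATA4, 0.91 for ACTA1, 1.51 for ANKRD1, 1.44 for DES, 1.54 for ESRRA, 0.011 for HEY2, 0.53 for MYH7, 1.29 for SMYD2, 0.92 for THRA, 1.50 for TPM2 and 0.15 for ZFPM2. With ischemic replicate 2 also left out they were 0.76 for HAND1, 2.25 for MEF2C, 0.48 for PROX1 and 0.42 for GATA4. For border zone against healthy myocardium the scaling gave 0.051 for MITF, 0.19 for PROX1, 0.33 for SMYD1 and 0.49 for GATA4, and for ischemic against border zone 0.57 for HAND1 and 0.54 for MEF2C. HAND1 in ischemic against border zone myocardium had 0.72 with quantile normalization, 0.25 with limma-voom and -0.81 to 0.50 without single libraries, positive without ischemic replicate 2. MITF in border zone against healthy myocardium had 0.60 at its position of highest mean. In ischemic against healthy myocardium BRD2 had -0.14 with quantile normalization, ESRRA -0.62 to 0.014 without single libraries, positive without ischemic replicate 2, and FDFT1 -0.12 with the same median, -0.11 with quantile normalization and -0.16 to 0.36 without single libraries, negative without ischemic replicate 3 or healthy replicate 2 or 3. The cause was not tested. Over all alternatives, 426 values of the 8 genes kept direction and call, 48 lost the call, 12 gained it and 17 turned. Depth limits HAND1, SMYD1 and MITF in the ischemic zone, with 3, 23 and 45 reads.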
